A study of Arabidopsis thaliana with 6 samples.

Results

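This account concerns 8 Arabidopsis thaliana genes that build or carry the metal cofactors of nitrate assimilation. They are UPM1 (AT5G40850) and SIR (AT5G04590) of sirohaem, and CNX1 (AT5G20990), CNX2 (AT2G31955), CNX3 (AT1G01290), CNX5 (AT5G55130), CNX6 (AT2G43760) and CNX7 (AT4G10100) of the molybdenum cofactor. They are defined by function and locus code, with earlier results of these data known, and come from 27444 protein-coding genes of the nuclear chromosomes. For each gene, every peak was taken whose summit lay inside the gene or within 5000 bp of either end.

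The peaks come from chromatin immunoprecipitation followed by sequencing (ChIP-seq) of NLP2, a transcription factor of the nitrate-responsive NIN-like protein family. All libraries came from whole seedlings of the mutant nlp2-2, in the Col-0 background, complemented by a pNLP2::NLP2-GFP construct; the tagged protein is therefore made from the NLP2 promoter, and anti-GFP antibodies precipitated it. Seedlings labelled as 14 days old had grown for 10 days on 3 mM KNO3 and then without nitrogen for 3 days. The T30 group then received 3 mM nitrate for 30 min, and the T0 group received fresh nitrogen-free medium. Each time had 2 immunoprecipitated (IP) libraries and 1 input library. The authors deposited 1 IP peak list per time, with 593 peaks at T30 and 579 at T0, made from both IP libraries pooled. No value per replicate was used here, so no error, replicate check or test can be given for a peak or for a difference between the times.

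Sirohaem is the iron-containing ring at the active site of nitrite reductase and sulfite reductase. UPM1 methylates uroporphyrinogen III, the step that leaves the haem and chlorophyll pathway for sirohaem, and SIRB inserts the iron. The molybdenum cofactor, a pterin that holds molybdenum, is needed by nitrate reductase and the other plant molybdenum enzymes. CNX2 and CNX3 make its cyclic precursor from GTP in mitochondria, CNX6 and CNX7 form the molybdopterin synthase that adds sulfur, CNX5 recharges CNX7 with sulfur, and CNX1 inserts the molybdenum. Cells must therefore make both cofactors before nitrate can be reduced to ammonium.

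After nitrate, NLP2-GFP peaks lay at the sirohaem genes UPM1 and SIR and at the molybdenum cofactor genes CNX2 and CNX6. The other 4 genes, CNX1, CNX3, CNX5 and CNX7, had no T30 summit within 5000 bp. Thus 4 of the 8 genes had a T30 summit, against 5.41% of all protein-coding genes (1485 of 27444). In the T0 list, 0 of the 8 genes had one, against 3.76% of all protein-coding genes (1031 of 27444). Over all genes, 4.92% had a summit at T30 and none at T0, as these 4 did. At the T0 share of all genes, 0 of so few genes is near the background and says nothing particular about them.

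The 4 T30 peaks spanned much of the range of the list. The authors' fold per peak, a linear ratio that MACS2 gives over its own background, had a median of 2.75 over the whole T30 list and ran from 2.01 to 20.9. The UPM1 and SIR peaks lay above that median and the CNX2 and CNX6 peaks below it. The UPM1 fold was 3.16 times that of SIR and 4.99 times that of CNX2, the lowest of the 4. How much these folds vary between replicates is not known from the pooled list.

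**Figure D1:**
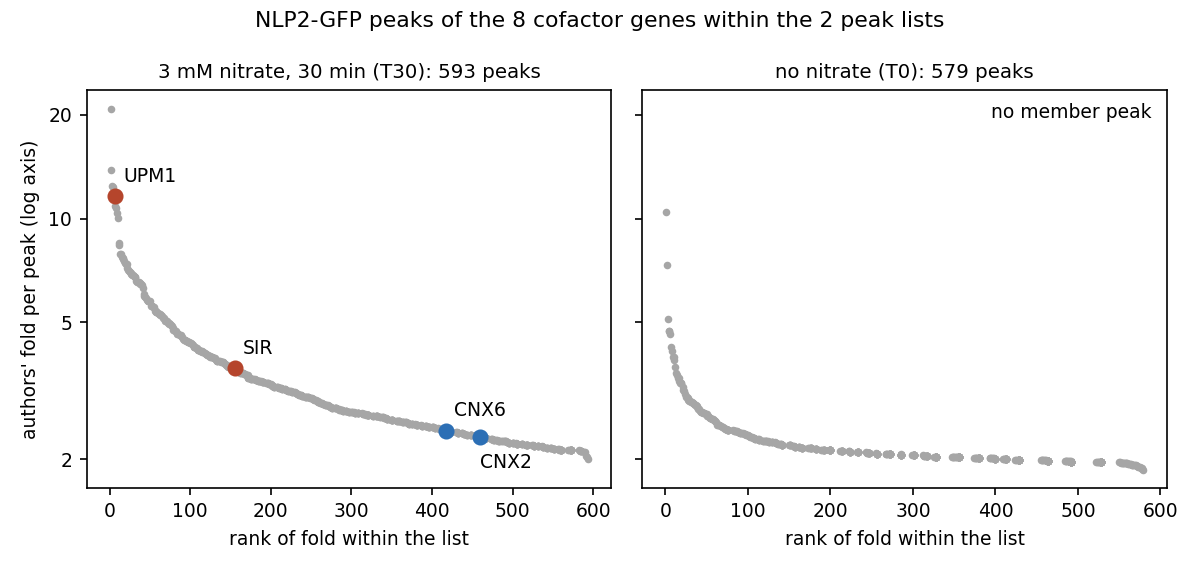
The authors' fold per peak (vertical log axis) against its rank within the T30 list (left, 593 peaks) and the T0 list (right, 579 peaks). Grey points are all peaks, red points those of UPM1 and SIR, and blue points those of CNX2 and CNX6; UPM1 ranks 6, the CNX genes rank 417 and 459, and the T0 list has no peak at the 8 genes. The lists were called separately, so heights are read within a panel.

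UPM1 had the strongest peak of the 8 genes. It lay on chromosome 5 of TAIR10 from 16366084 to 16366757, with its summit at 16366443 inside the gene, and the whole peak was inside the gene. Its fold was 11.6 and its −log10 q was 954. That fold ranked 6 of the 593 T30 peaks, in the top 1.01%. At 674 bp it was also the widest of the 4 peaks, and 19.7% of the list was wider. The summit was more than 500 bp and at most 1000 bp from the nearer end of the gene, so among the 4 peaks it was the one farthest from a gene end. The next T30 peak was more than 200 kb away, as was also the case for the CNX2 peak, the one with the lowest fold of the 4. Within 5000 bp the summit also had SYN2, which encodes a cohesin subunit, AT5G40855 and AT5G40860, each more than 2000 bp away.

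The T30 peaks ranked just above and just below the UPM1 peak by fold are given for their likeness in fold alone. The peak at rank 5 had a fold of 11.6 on chromosome 5 from 12852782 to 12853674. Its nearest protein-coding gene, AT5G33898, was more than 50 kb away, and it overlapped 1 input peak at each time. The peak at rank 7 had a fold of 10.9 on chromosome 2 from 19697672 to 19698285, nearest to AT2G48160 at more than 1000 bp. It overlapped 1 T0 IP peak and 1 input peak at each time. The UPM1 peak overlapped no T0 IP peak and no input peak, as was true of most T30 peaks: 19.2% of the list overlapped a T0 IP peak, and 3 of 593 peaks overlapped a T30 input peak.

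SIR encodes the plastid sulfite reductase, which uses sirohaem to reduce sulfite to sulfide for cysteine synthesis. Its T30 peak lay on chromosome 5 from 1318727 to 1319112, with the summit at 1318910 outside the gene, within 500 bp of its end. The fold was 3.67 and the −log10 q was 103, and the fold ranked 155 of 593. The peak was 386 bp wide and reached into the SIR gene. The same summit was within 500 bp of DME, which encodes the DNA glycosylase DEMETER of active DNA demethylation, though the peak did not overlap that gene. SIR and DME thus flank the summit, and the peak list does not assign it to either. AT5G04600 was also within 5000 bp, at more than 2000 bp.

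CNX2 encodes the radical enzyme that starts molybdenum cofactor synthesis from GTP. Its T30 peak lay on chromosome 2 from 13586433 to 13586733, with the summit at 13586600 inside the gene and within 500 bp of a gene end. The fold was 2.32 and the −log10 q was 28.1, the lowest of the 4 peaks, and the fold ranked 459 of 593. It was also the narrowest of them, at 301 bp, and 85.5% of the T30 list was wider. The peak ran past the end of the gene. The callose synthase gene GSL03 and the defensin-like gene LCR75 were more than 1000 bp away, and LCR76 and AT2G31945 more than 2000 bp. No other protein-coding gene had this summit within 500 bp.

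CNX6 encodes the large subunit of molybdopterin synthase. Its T30 peak lay on chromosome 2 from 18132521 to 18132916, with the summit at 18132674 inside the gene and within 500 bp of a gene end. The fold was 2.42 and the −log10 q was 33.1, and the fold ranked 417 of 593. The peak was 396 bp wide, lay wholly inside CNX6 and also overlapped the neighbouring gene OASB. OASB encodes the plastid O-acetylserine (thiol) lyase, which joins sulfide to O-acetylserine to make cysteine. The summit was outside OASB but within 500 bp of it. AT2G43770 was more than 1000 bp away, and AT2G43740, AT2G43745 and AT2G43780 were more than 2000 bp away.

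**Figure D2:**
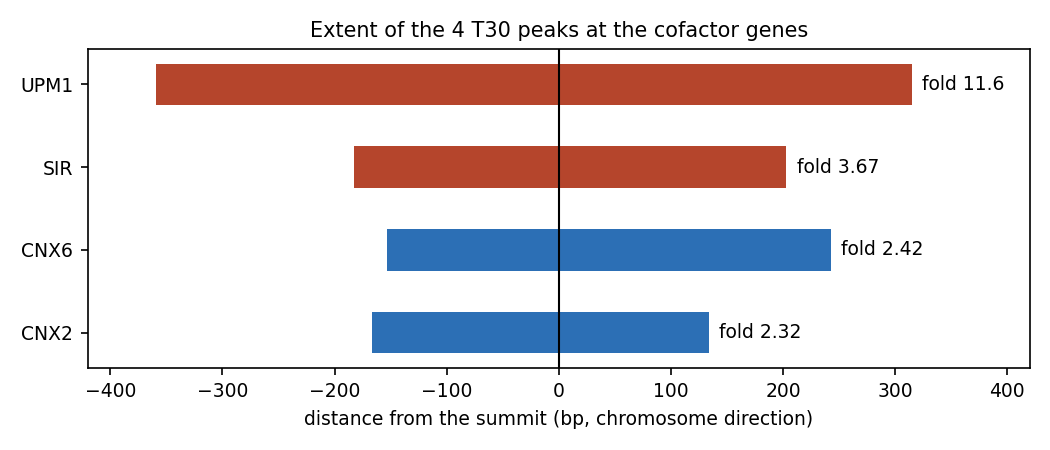
Extent of the T30 peaks at UPM1, SIR, CNX6 and CNX2 (one bar each) in bp from the peak's own summit, the vertical line at 0, in the direction of chromosome positions. Red bars are sirohaem genes and blue bars molybdenum cofactor genes, with the authors' fold beside each; the UPM1 peak spans 674 bp and the CNX2 peak 301 bp.

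The 4 peaks shared features that the 5000 bp rule did not ask for. Each gene had exactly 1 T30 summit in reach, as did 91.8% of the 1485 genes with any. All 4 summits were inside the gene or within 500 bp of it, as was true for 26.5% of the 1485 genes with a T30 summit within 5000 bp. A 500 bp rule thus gives the same 4 genes, against 1.44% of all protein-coding genes (394 of 27444) at T30. Counted once per peak, 53.8% of the T30 list had a summit inside or within 500 bp of some protein-coding gene (319 of 593). The widths, from 301 to 674 bp, had a median of 391 bp, against 435 bp for the whole T30 list, whose middle 50% ran from 348 to 600 bp. The same 4 genes had a T30 summit within 1000, 2000 and 10000 bp, against 1.91%, 2.75% and 9.4% of all protein-coding genes. At T0, 0 of the 8 genes had one within 500, 1000, 2000 or 10000 bp, against 1.04%, 1.35%, 1.97% and 6.65% of all genes. With T30 peaks at or above the median fold alone, UPM1 and SIR were left, 2 of the 8 genes against 3.0% of all. Strand was not used here, so which end of a gene a peak lay at cannot be said.

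**Figure D3:**
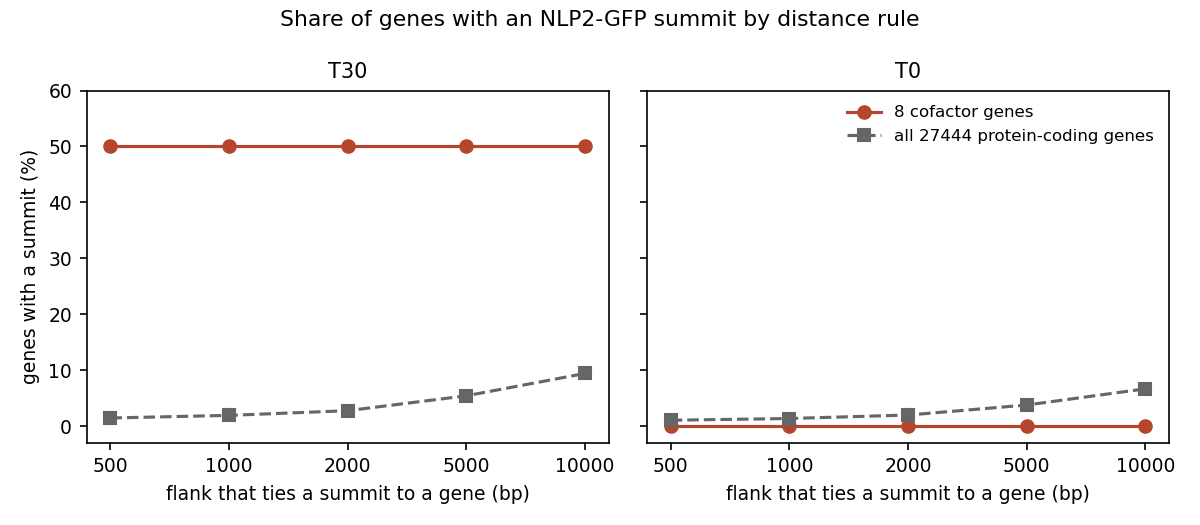
Share of genes (%) with a summit inside or within the stated flank (bp), for the 8 cofactor genes (red circles) and all 27444 protein-coding genes (grey squares), at T30 (left) and T0 (right). The red line stays at 4 of 8 genes at T30 and 0 of 8 at T0 under every flank drawn, while the share of all genes at T30 runs from 1.44% to 9.4%.

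None of the 4 peaks overlapped a T0 IP peak, against 114 of the 593 T30 peaks (19.2%) that did. None overlapped an input peak of either time, and no input peak lay within 5000 bp of any of the 8 genes. The input lists held only 22 peaks at T30 and 87 at T0. The share of all genes with an input peak within 5000 bp was not computed, so this absence is no result about the 8 genes. Over the T30 list, 3 peaks overlapped a T30 input peak and 32 a T0 input peak. The T0 list reached lower in −log10 q, to 16.1, than the T30 list, to 20.4. The −log10 q of each of the 4 peaks was 28.1 or more, above the T0 minimum. As members of the T30 list they could not fall below its minimum. The comparison cannot say whether such peaks would have been called at T0, because the lists were called separately. The absence of a T0 peak here is an absence from a separately called list of unknown read depth, and whether NLP2-GFP signal at these genes differed between the times was not tested.

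The T0 peaks nearest to the 4 genes lay outside every flank used here. UPM1 and SIR had none within 100 kb, and CNX2 and CNX6 had none within 20 kb. The distance to the nearest T0 peak was not computed over all genes, so these distances are no result about the 4 genes. The nearest T0 folds were 2.20 for UPM1, 1.98 for SIR, 1.93 for CNX2 and 1.99 for CNX6, in a list whose median was 2.06. These T0 summits lay nearest to other genes, and their folds are given only to place the loci in the T0 list.

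The other 4 genes of molybdenum cofactor synthesis, CNX1, CNX3, CNX5 and CNX7, had no summit within 5000 bp at either time. Of these 4, CNX7, the small subunit that works with CNX6, had a T30 peak at the shortest distance, though outside every flank used here. Its nearest T30 peak, on chromosome 4 from 6324806 to 6325339, was more than 10 kb and at most 20 kb away, with a fold of 7.36 and rank 21. The protein-coding gene nearest to that summit was AT4G10140. CNX1, the molybdenum insertase, had its nearest T30 peak more than 20 kb away with a fold of 3.56. CNX3, the partner of CNX2, and CNX5, the sulfur donor of CNX7, had theirs more than 50 kb away, with folds of 4.40 and 2.22. None of these 4 genes had a T0 summit within 50 kb. Distances to the nearest peak were not computed over all genes, so they are no result about these 4. Against the 5.41% of all protein-coding genes with a summit at T30 and the 3.76% at T0, 0 of these 4 genes at each time is near the background.

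Around these genes, 28 others of the same pathways and of the enzymes that use the cofactors were examined in the same way. Of these 28, 5 had a T30 summit within 5000 bp and 3 a T0 summit, against the 5.41% and 3.76% of all protein-coding genes given above. The highest fold per gene had a median of 5.37 over the 5 genes at T30 and 2.87 over all 1485 genes with a T30 summit. At T0 it was 1.99 over the 3 genes and 2.03 over all 1031.

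In the tetrapyrrole pathway, 0 of the 9 genes of the steps before the branch to sirohaem had a summit at either time. With 5.41% of all protein-coding genes called at T30 and 3.76% at T0, a count of 0 among 9 is near the background and is no result about these steps. These are HEMA1, HEMA2 and HEMA3, GSA1 and GSA2, HEMB1 and HEMB2, HEMC and HEMD, which lead from glutamyl-tRNA to uroporphyrinogen III. SIRB, the ferrochelatase that completes sirohaem after UPM1, also had none. HEME1, a uroporphyrinogen decarboxylase on the haem and chlorophyll side, had a T30 peak with a fold of 3.04 on chromosome 3 from 5023616 to 5024064, more than 500 bp away, while HEME2 had none. Of the 2 sirohaem enzymes, NIR1, the nitrite reductase gene, had 2 T30 peaks beside the 1 of SIR at 3.67. Their folds were 5.37, with the summit inside NIR1, and 3.22, with the summit more than 1000 bp away. The UPM1 fold was thus above that of any peak at NIR1 or SIR, the genes of the enzymes that use sirohaem.

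On the molybdenum side, 2 of the 11 enzyme genes had a T30 summit within 5000 bp, against 5.41% of all protein-coding genes. They were the nitrate reductase genes. NIA2 had 1 peak within 5000 bp, with a fold of 20.9 and rank 1, its summit more than 2000 bp from the gene. NIA1 had 4, with folds of 10.4, 5.27, 2.74 and 2.67, all with summits outside the gene. Those of 10.4 and 5.27 were more than 1000 bp away. Those of 2.74 and 2.67 were more than 2000 bp away, nearest to AT1G77750 and AT1G77765. The CNX2 and CNX6 folds, 2.32 and 2.42, were below those of all these peaks. The aldehyde oxidase genes AAO1, AAO2, AAO3 and AAO4, the xanthine dehydrogenase genes XDH1 and XDH2, the sulfite oxidase gene SOX and the amidoxime-reducing genes ARC1 and ARC2 had no T30 summit in reach. At the T30 share of all genes, none among so few is near the background and is no result about them. AAO2 had a T0 summit more than 2000 bp away, with a fold of 2.19, which lay inside another gene, AT3G43583.

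Of the molybdate transporter genes, MOT2 had a summit inside the gene at T30 alone and MOT1 at T0 alone. MOT2 had a T30 peak on chromosome 1 from 30194653 to 30196316 with a summit inside the gene, a fold of 3.39 and a width of 1664 bp. That summit was also inside AT1G80315, which overlaps MOT2. At T0 a different peak, with a fold of 1.97, was more than 2000 bp from MOT2 with its summit inside GA3OX4, a gibberellin oxidase gene; it did not overlap the T30 peak. MOT1 had no T30 peak. At T0 it had a peak from 10933183 to 10934301 on chromosome 2 with its summit inside the gene, and a fold of 1.99 that ranked 429 of 579. ATM3, the mitochondrial exporter needed for the cofactor precursor, and ABA3, which adds sulfur to the cofactor of aldehyde oxidases and xanthine dehydrogenases, had no summit at either time. With 5.41% of all protein-coding genes called at T30 and 3.76% at T0, that is near the background.

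**Figure D4:**
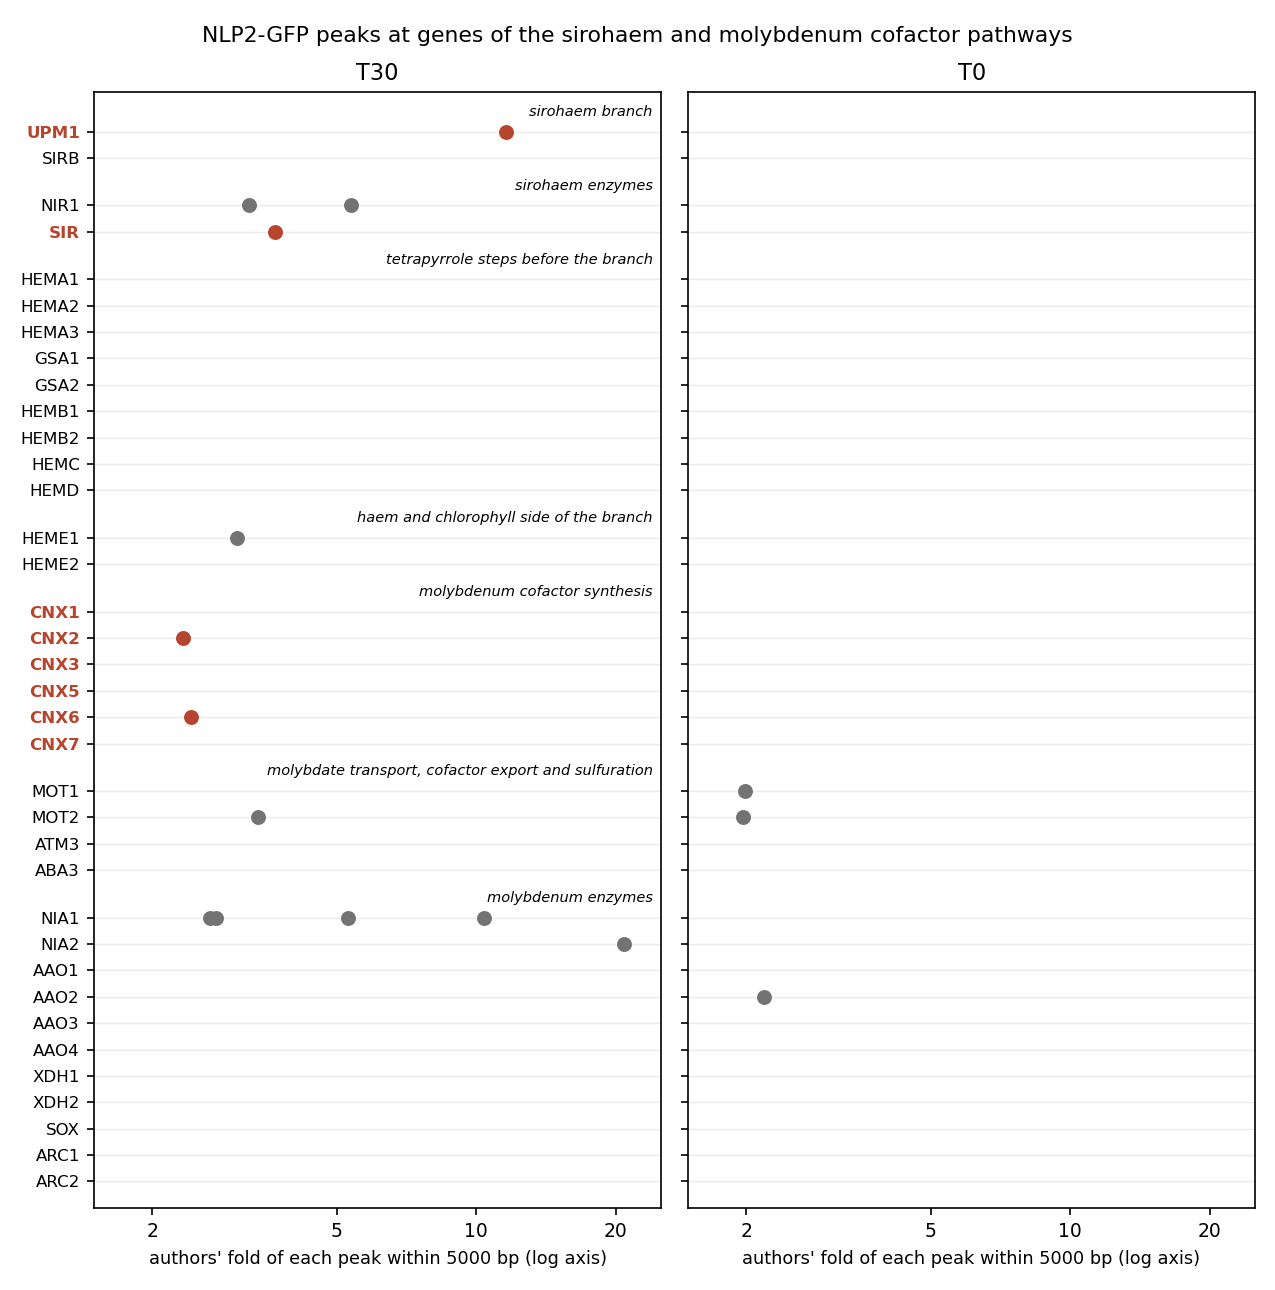
The authors' fold of each peak (horizontal log axis) with its summit inside or within 5000 bp of the gene on that row, at T30 (left) and T0 (right), for 36 genes grouped by role. Red points and names are the 8 cofactor genes and grey points the other 28; an empty row had no peak. At T30 the points lie at UPM1, NIR1, SIR, HEME1, CNX2, CNX6, MOT2, NIA1 and NIA2, and at T0 at MOT1, MOT2 and AAO2.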

How the data were processed

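NLP2-GFP was profiled by ChIP-seq in 6 libraries, grouped by the labels into T30 and T0, IP and input. The submitters' processing notes name the build TAIR10 and the tools MACS2 2.1.1, Bowtie2 2.3.4.1 and SAMtools 1.7. The 4 deposited lists hold peaks called by the authors. The IP lists carry POOLED and IDR in their names, read here as pooled replicates filtered for reproducibility. The names also carry noCM and noINPUT, which are not spelled out. If noINPUT means that peaks found in input had been removed, a lack of overlap with input peaks would follow in part from that step, although 3 T30 IP peaks still overlap a T30 input peak. How input entered the calling is not given in the sources used here. The authors' fold of a peak is a ratio, and it was used within 1 list alone. The deposited −log10 q values were also set against the lowest value of the other list and against a cut-off shared by both, although the lists were called separately. The authors' score column repeats −log10 q (times 10, without decimals) in 1172 of 1172 IP peaks. The lists give no read depth, so no interval is given.

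Peak positions are 1-based. RefSeq's table of genes in TAIR10.1 gave names and neighbours by locus code (36 of 36 found). Its coordinates are not printed and distances are given as classes, assuming that both assemblies share nuclear coordinates. Strand, exons and sequence were not used, and the planned motif search was not analysed here. An overlap of 1 bp or more made 2 peaks shared.

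Named genes are the 8 genes, other pathway genes with a summit, genes within 5000 bp of a member summit, and those nearest to the T30 peaks ranked beside UPM1. The genes and lists were chosen with earlier results of these data known. Counts stand beside the share of all protein-coding genes. No test was made, because the pooled lists hold no spread between replicates. The counting step was tested on simulated peaks (Python 3.11.15, pandas 2.3.3). Alternatives changed the flank, the peak threshold, the position used and the overlap rule.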

Additional observations from a re-analysis of the deposited data

How the results depend on the processing

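The count of cofactor genes with a T30 summit stayed at 4 under 10 of 11 alternatives. These were flanks of 500, 1000, 2000 and 10000 bp, the nearest gene alone and any base of the peak. The others were a −log10 q of at least 20.4 in both lists, IP peaks that overlap input peaks left out, and the gene table moved by 1000 bp in either direction. The last was added after seeing the data. Several of these could not have lowered the count. The cut-off of 20.4 is the T30 list's own minimum, and none of the 4 peaks overlaps an input peak. All 4 summits lay inside or within 500 bp of the gene, so wider flanks and the moved table had to keep them. With peaks at or above the median fold of the list it was 2, UPM1 and SIR, against 3.0% of all protein-coding genes, since the CNX2 and CNX6 folds lie below that median. At T0 the count was 0 under all 11, but none of these could have raised it. Narrower flanks, the nearest gene alone, the cut-offs and the removal of input overlaps only take peaks away. Every cofactor gene had its nearest T0 summit more than 20 kb away. The wider flank, any base of the peak and the moved table could not reach that far. Of the 4 T30 peaks, 0 overlapped a T0 peak under both other overlap rules. At that distance these rules could not have given another count either. The share of all protein-coding genes grew with the flank: at 500, 1000, 2000 and 10000 bp it was 1.44%, 1.91%, 2.75% and 9.4% at T30, and 1.04%, 1.35%, 1.97% and 6.65% at T0. No paired analysis was possible because the deposited lists pool both replicates, and for the same reason no replicate could be left out. The motif alternative was not run.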

Other observations

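OASB, which shares the CNX6 peak, and SIR both serve cysteine synthesis, so 8 genes of O-acetylserine (thiol) lyase and serine acetyltransferase were looked up because the OASB peak had been seen. OASB alone had a T30 summit within 5000 bp, the one shared with CNX6. OASA1, OASC, SERAT1;1, SERAT2;1, SERAT2;2, SERAT3;1 and SERAT3;2 had none at T30, and 0 of the 8 had one at T0. Against 5.41% of all protein-coding genes at T30 and 3.76% at T0, 1 of 8 and 0 of 8 are near the background, and the 1 is the gene that prompted the list.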
